A study of Mus musculus with 10 samples.

Results

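Radial glia are the progenitors that line the ventricles of the embryonic brain, and 10 genes known for their expression in radial glia or in the glia of the fimbria were followed in the cortical hem (CH): *Nes*, *Vim*, *Gfap*, *Fabp7*, *Slc1a3*, *Prom1*, *Ddah1*, *Hopx*, *Tnc* and *Ptprz1*. They were chosen by name, as the rows of the count table with these symbols, and make up 10 of its 52227 genes. Of the 10, 9 had enough reads to be tested, and *Gfap* did not. In the CH of *Lmx1a*-/- embryos, *Vim* and *Hopx* rose, and none of the other tested genes passed the threshold in either direction.

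The CH is the medial edge of the telencephalic neuroepithelium. It secretes Wnt and Bmp signals, gives rise to Cajal-Retzius cells and later becomes the fimbria, whose glial fibers form part of the scaffold along which cells of the dentate gyrus migrate. Radial glia contact the ventricle with 1 end and the brain surface with the other, and they carry a shared set of transcripts for cytoskeletal filaments, a fatty acid binding protein, transporters and matrix proteins. Many of these genes are later expressed by astrocytes, so they mark a lineage and not a single cell state.

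RNA came from 5 wild-type and 5 *Lmx1a*-/- mouse embryos at e13.5, with 1 library per embryo. *Lmx1a* encodes a LIM-homeodomain transcription factor, and the *Lmx1a*-/- embryos were homozygous for *drJ*, which the study treats as a null allele. Both genotypes were kept on a mixed background of C57Bl6, FVB and CD1, and neither was treated. The whole CH was cut out by laser from sections in which neighboring sections stained for Lmx1a set its borders, and the tissue of 1 embryo was pooled. Each library is therefore a mixture of cells, in which more cells that express a gene cannot be told apart from more RNA per cell.

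Library totals lay between 19145952 and 36462780 counts. Levels are given as normalized CPM, the counts of a gene relative to the total of its library after TMM scaling, and the difference between genotypes as the log2 fold change of *Lmx1a*-/- over wild type. Genotypes were compared with the quasi-likelihood test of edgeR over all 21664 genes that passed the filter on low counts, and genes with a false discovery rate (FDR) under 0.1 were called. Wild-type embryos 2 to 5 had 4399 to 5169 normalized CPM of *Xist*, while wild-type embryo 1 and the 5 *Lmx1a*-/- embryos had less than 2. All 4 Y-linked genes examined were transcribed in the latter 6 embryos and at or near 0 in the former 4. Except for wild-type embryo 1, genotype and sex chromosome transcripts thus cannot be told apart. The fit of the 6 embryos with Y-linked transcripts compares 1 wild-type embryo with 5 *Lmx1a*-/- embryos. It has no replicate of the wild type, so only its log2 fold change is given beside each of the 9 tested genes. *Lmx1a* transcripts were present in both genotypes, at 45.6 to 90.8 normalized CPM in wild-type and 89.9 to 145 in *Lmx1a*-/- embryos, so this count does not check the labels.

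*Vim* encodes vimentin, the main intermediate filament protein of radial glia (chr2:13573927-13582826 of GRCm38, plus strand). Wild-type embryos 1 to 5 had 743, 655, 781, 472 and 704 normalized CPM of *Vim*. *Lmx1a*-/- embryos 1 to 5 had 1173, 1333, 1125, 1259 and 1226 normalized CPM. Every mutant embryo lay above every wild-type embryo, and wild-type embryo 4 was the lowest of all. The mean rose 1.82-fold, from 671 ± 121 to 1223 ± 79.6 normalized CPM (SD, n = 5 per genotype). The log2 fold change was 0.87 (SE 0.11, 95% confidence interval 0.62 to 1.11, edgeR FDR = 0.00183), which placed *Vim* at rank 39 of all tested genes. *Vim* passed in each of the 10 fits that left out 1 embryo, with log2 fold changes from 0.76 to 0.92. Among the 6 embryos with Y-linked transcripts, 1 of them wild type, the log2 fold change was 0.71.

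*Hopx* encodes a small homeodomain protein that lacks DNA binding and is widely used as a marker of outer radial glia and of the dentate progenitor lineage (chr5:77086988-77115121, minus strand). Wild-type embryos 1 to 5 had 13.2, 12.3, 10.7, 6.12 and 14.6 normalized CPM of *Hopx*, and *Lmx1a*-/- embryos 1 to 5 had 34.5, 34.2, 16.7, 17.2 and 28.2. The genotypes did not overlap, but mutant embryos 3 and 4 stood close to the highest wild-type embryo. The mean rose 2.29-fold, from 11.4 ± 3.26 to 26.2 ± 8.79 normalized CPM (SD, n = 5 per genotype). With a log2 fold change of 1.19 (SE 0.26, 95% confidence interval 0.64 to 1.75, edgeR FDR = 0.0308), this was the steepest difference of the 9 tested genes. *Hopx* also passed in all 10 fits without 1 embryo (log2 fold change 1.03 to 1.31). Among the 6 embryos with Y-linked transcripts, 1 of them wild type, the log2 fold change of *Hopx* was 0.98. The antisense gene *Hopxos* shares 412 exonic bases with *Hopx*. It held 56 counts over all libraries against 5096 for *Hopx*, and whether the counting used strand is not given in the sources used here. The same limit holds for *Prom1*, which shares 424 exonic bases with the antisense gene *Gm16401* (925 counts against 46724). *Tnc* shares 176 exonic bases with *8030451A03Rik* on the opposite strand (101 counts against 6104).

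**Figure D1:**
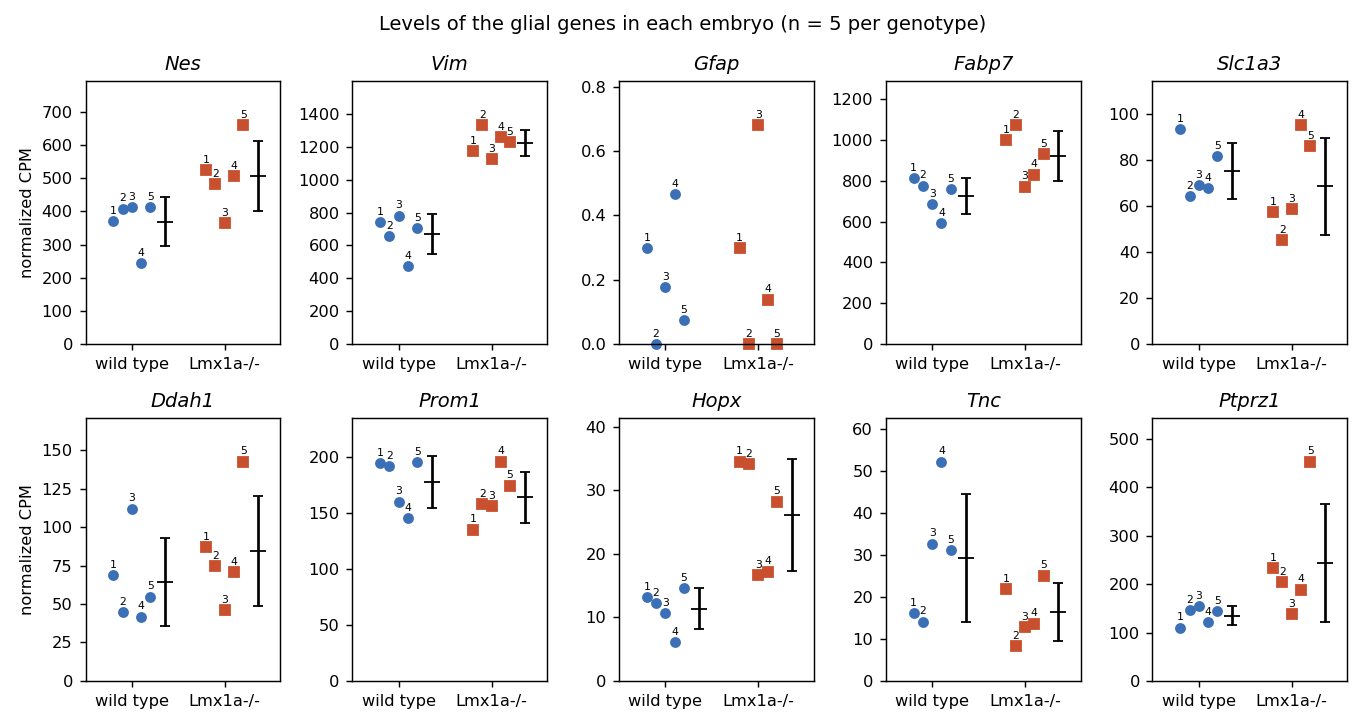
Normalized CPM (vertical axes, each from 0) of the 10 genes in every embryo, with circles for wild-type and squares for *Lmx1a*-/- embryos, embryo numbers above the symbols, and the mean with SD bars beside them (not drawn for *Gfap*). Only for *Vim* and *Hopx* do all 5 mutant embryos lie above all 5 wild-type embryos.

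With *Vim* and *Hopx*, 2 of the 9 tested genes were higher past the threshold, where 1.72% of all tested genes were, and 0 of the 9 were lower, where 2.29% of all tested genes were. In either direction, 4.02% of all tested genes passed. The same 2 genes were those whose genotypes did not overlap, a property of 4.44% of all tested genes. By unadjusted p under 0.05, 6 of the 9 genes differed, in comparison with 16.4% of all tested genes. These 6 were *Vim*, *Hopx*, *Ptprz1*, *Fabp7* and *Nes*, with higher means in *Lmx1a*-/- CH, and *Tnc*, with a lower mean. The median log2 fold change of the 9 genes was 0.38, and that of all tested genes was -0.005. With the level of *Xist* or of the choroid plexus genes in the fit as a covariate, 0 of the 9 genes passed, and few genes of the whole table did (28 lower and 5 higher with *Xist*, 10 lower and 6 higher with choroid plexus genes). *Vim* then had log2 fold changes of 0.70 (SE 0.21) and 0.62 (SE 0.18), and *Hopx* 0.95 (SE 0.50) and 1.02 (SE 0.49). Without a covariate the SE was 0.11 for *Vim* and 0.26 for *Hopx*. *Xist* nearly follows genotype, so a fit with *Xist* can hardly separate them. The choroid plexus genes also differed by genotype, with 9 of 10 means lower in *Lmx1a*-/- CH (median log2 fold change -1.23). A fit with these genes thus separates their level from genotype poorly as well.

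**Figure D2:**
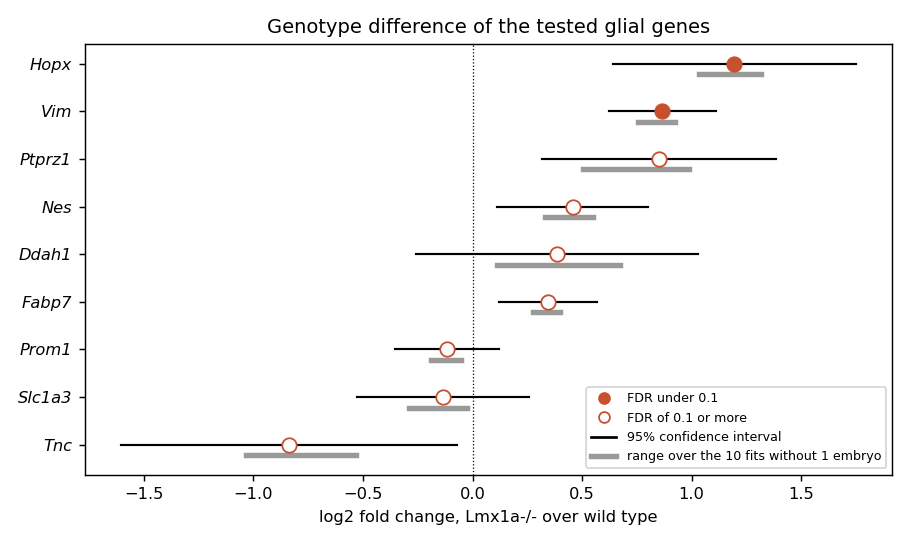
Log2 fold change of *Lmx1a*-/- over wild type (horizontal axis) for the 9 tested genes, with 95% confidence intervals as thin lines, the range over the 10 fits without 1 embryo as gray bars, and filled symbols for FDR under 0.1. *Hopx* at 1.19 and *Vim* at 0.87 are filled, and *Tnc* at -0.84 has the lowest estimate with a wide interval.

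*Nes* encodes nestin, the filament protein by which neural progenitors are commonly recognized (chr3:87971078-87980451, plus strand). Wild-type embryos 1 to 5 had 369, 408, 412, 243 and 414 normalized CPM of *Nes*, and mutant embryos 1 to 5 had 524, 481, 364, 505 and 660. Mutant embryos 1, 2, 4 and 5 lay above all wild-type embryos, and mutant embryo 3 lay below all but wild-type embryo 4. The means were 369 ± 72.7 and 507 ± 106 normalized CPM (SD, n = 5 per genotype), with a log2 fold change of 0.46 (SE 0.16, 95% confidence interval 0.11 to 0.80, edgeR FDR = 0.169). Without mutant embryo 3 it was 0.55 and passed (edgeR FDR = 0.0777), and among the 6 embryos with Y-linked transcripts it was 0.45.

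*Gfap*, the filament gene of mature astrocytes and of the later fimbrial scaffold (chr11:102887336-102900912, minus strand), was barely detected at e13.5. Wild-type embryos 1 to 5 had 8, 0, 6, 9 and 2 reads of *Gfap*, and *Lmx1a*-/- embryos 1 to 5 had 9, 0, 20, 5 and 0. Only 1 library reached 10 reads and 3 had none. A count of 0 allows up to 3 reads, which are 0.135 normalized CPM in wild-type embryo 2, 0.163 in mutant embryo 2 and 0.104 in mutant embryo 5. These limits cover counting error only. At 25 reads over all wild-type and 34 over all mutant embryos, a difference between genotypes was not tested.

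Further intermediate filament genes tested were those of nuclear lamins, neurofilaments, keratins, desmin, synemin and lens filaments. Of these 14 genes, 0 passed in either direction, against 4.02% of all tested genes. Their median log2 fold change was -0.002. The smallest p values belonged to 3 scarce transcripts. The simple epithelial keratin *Krt8* had 1.35 to 3.77 normalized CPM in wild-type and 0.028 to 1.29 in *Lmx1a*-/- embryos, without overlap (log2 fold change -2.16, edgeR FDR = 0.102). For its partner *Krt18* the log2 fold change was -1.69, and for the lens filament gene *Bfsp2* it was -1.51.

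*Fabp7* encodes the brain fatty acid binding protein, a cytoplasmic lipid carrier of radial glia (chr10:57784881-57788450, plus strand). In order of embryo number, the wild-type levels of *Fabp7* were 812, 776, 684, 592 and 757 normalized CPM, and the mutant levels were 999, 1073, 771, 831 and 929. Mutant embryo 3 fell within the wild-type range, and the other mutant embryos lay above it. The means were 724 ± 87.3 and 921 ± 123 normalized CPM (SD, n = 5 per genotype), a log2 fold change of 0.35 (SE 0.10, 95% confidence interval 0.12 to 0.57, edgeR FDR = 0.113). It passed only without mutant embryo 3 among the fits that left out 1 embryo (0.40, edgeR FDR = 0.0683). Among the 6 embryos with Y-linked transcripts it was 0.18.

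*Slc1a3* encodes the glutamate transporter GLAST (chr15:8634124-8710764, minus strand), and wild-type embryos had 64.5 to 93.6 (median 69.2) and mutant embryos 45.4 to 95.4 (median 58.7) normalized CPM. The mutant embryos enclosed the whole wild-type range (log2 fold change -0.14, SE 0.18, 95% confidence interval -0.53 to 0.26, edgeR FDR = 0.77). Among the 6 embryos with Y-linked transcripts it was -0.45. *Prom1* encodes prominin, a pentaspan protein of the apical membrane of neural progenitors (chr5:43993620-44102032, minus strand). Its levels were 146 to 196 (median 192) normalized CPM in wild-type and 135 to 196 (median 158) in mutant embryos. The log2 fold change of *Prom1* was -0.11 (SE 0.11, 95% confidence interval -0.35 to 0.12, edgeR FDR = 0.658), the narrowest of the 3 intervals that included 0. Among the 6 embryos with Y-linked transcripts the log2 fold change of *Prom1* was -0.25. *Ddah1*, an enzyme that breaks down methylated arginines and so limits inhibitors of nitric oxide synthase, ranged from 41.8 to 112 (median 54.8) normalized CPM in wild-type and from 46.3 to 143 (median 74.7) in mutant embryos (chr3:145758675-145894277, plus strand). For *Ddah1* the spread within a genotype was 44.5% of the mean in wild-type and 42.5% in mutant embryos, and a log2 fold change of 0.38 had a 95% confidence interval from -0.26 to 1.03 (edgeR FDR = 0.569). Among the 6 embryos with Y-linked transcripts it was 0.28.

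*Tnc* encodes tenascin C, a matrix glycoprotein of progenitor zones, and *Ptprz1* encodes a receptor tyrosine phosphatase of glia that binds tenascin C, pleiotrophin and contactin. Their means differed in opposite directions. For *Tnc* (chr4:63959785-64047015, minus strand), wild-type embryos 1 to 5 had 16.2, 14.1, 32.7, 52.2 and 31.1 normalized CPM, and mutant embryos 1 to 5 had 21.8, 8.26, 12.8, 13.7 and 25.1. Wild-type embryos 3, 4 and 5 lay above all mutant embryos, and wild-type embryos 1 and 2 lay among them. The log2 fold change was -0.84 (SE 0.36, 95% confidence interval -1.60 to -0.07, edgeR FDR = 0.256). It depended on wild-type embryo 4, without which it was -0.53. Among the 6 embryos with Y-linked transcripts it was 0.01, with wild-type embryo 1 (16.2 normalized CPM) as the only wild-type embryo.

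For *Ptprz1* (chr6:22875502-23052916, plus strand), wild-type embryos 1 to 5 had 110, 146, 155, 121 and 144 normalized CPM, and mutant embryos 1 to 5 had 233, 204, 138, 188 and 453. Mutant embryo 3 lay within the wild-type range and mutant embryo 5 far above all others. The means were 135 ± 18.8 and 243 ± 122 normalized CPM (SD, n = 5 per genotype), with a log2 fold change of 0.85 (SE 0.25, 95% confidence interval 0.32 to 1.38, edgeR FDR = 0.104). Without mutant embryo 5 the log2 fold change of *Ptprz1* was 0.50, and without mutant embryo 3 it was 0.99 and passed (edgeR FDR = 0.0413). Among the 6 embryos with Y-linked transcripts it was 1.14.

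Of 17 tested ligands and receptors of tenascin C and *Ptprz1*, 0 passed in either direction (median log2 fold change -0.13), against 4.02% of all tested genes. The growth factor *Ptn*, which binds Ptprz1, had 147 ± 37.1 and 191 ± 47.4 normalized CPM, and its relative *Mdk* had 256 ± 20.5 and 255 ± 23.7 (SD, n = 5 per genotype), chosen here after their values were seen. The smallest p belonged to the integrin subunit *Itgb1*, whose wild-type embryos (146 to 163 normalized CPM) lay above all mutant embryos (131 to 145), by a log2 fold change of -0.20 (edgeR FDR = 0.124). The adhesion molecule *Nfasc* (0.34) and the integrin subunit *Itgb6* (-2.84, with wild-type embryo 4 at 9.13 and all others at 1.94 or less) followed. Among 11 tested paralogs and partners of the 10 genes, only *Tnn*, the gene of tenascin N, passed (log2 fold change -4.57, SE 1.23, edgeR FDR = 0.077). It was scarce, and wild-type embryo 4 had 7.68 normalized CPM of *Tnn* while all others had 2.16 or less. It passed only without wild-type embryo 1 or 5 among the 10 fits that left out 1 embryo, and its log2 fold change was -0.97 with the *Xist* covariate.

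Promoter sequences are shown for *Hopx*, which passed with the steepest rise, and for *Ptprz1* and *Tnc*, a receptor and its ligand whose means differed in opposite directions. LIM-homeodomain factors generally bind sites with a TAAT core, and Rbpj, the DNA-binding partner of Notch in radial glia, binds TGGGAA. Each sequence is the 250 bases before a RefSeq transcript start in GRCm38.p6, read 5′ to 3′ on the strand of the gene, with matches to TAAT (or its reverse complement ATTA) and TGGGAA (or TTCCCA) in capitals.
*Hopx*, chr5:77115124-77115373, minus strand: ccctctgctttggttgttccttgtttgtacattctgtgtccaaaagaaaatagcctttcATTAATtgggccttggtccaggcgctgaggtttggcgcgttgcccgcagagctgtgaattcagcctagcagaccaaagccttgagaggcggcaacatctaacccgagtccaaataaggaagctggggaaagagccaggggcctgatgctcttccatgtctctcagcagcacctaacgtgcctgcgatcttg
*Ptprz1*, chr6:22875252-22875501, plus strand: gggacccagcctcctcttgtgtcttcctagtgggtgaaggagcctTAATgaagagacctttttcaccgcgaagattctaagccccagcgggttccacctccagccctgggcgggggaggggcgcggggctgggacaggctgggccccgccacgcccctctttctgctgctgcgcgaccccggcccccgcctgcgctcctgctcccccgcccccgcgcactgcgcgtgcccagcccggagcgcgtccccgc
*Tnc*, chr4:64047016-64047265, minus strand: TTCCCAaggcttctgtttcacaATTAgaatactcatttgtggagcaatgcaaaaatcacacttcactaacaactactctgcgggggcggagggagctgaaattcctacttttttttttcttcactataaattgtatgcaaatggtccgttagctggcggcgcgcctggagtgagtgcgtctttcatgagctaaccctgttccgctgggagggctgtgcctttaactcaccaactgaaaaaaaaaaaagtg
The *Hopx* sequence has overlapping ATTA and TAAT matches, which begin at positions -191 and -189 from the start. *Ptprz1* has a TAAT at -205, and *Tnc* an ATTA at -228 and a TTCCCA at -250. Over all 13 such windows of the 10 genes, 10 windows of 7 genes held TAAT or ATTA, which 54.9% of 32851 RefSeq windows of this length hold. TGGGAA or TTCCCA was in 5 windows of *Fabp7*, *Gfap*, *Prom1* and *Tnc*, against 21.6% of all windows, and the longer TAATTA was in 0 of the 13, against 4.84%. The whole *Vim* window lies in an annotated exon and is not printed. These matches describe letters in the windows and not binding.

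The levels of different genes were compared as normalized CPM per kb of annotated exons. In wild-type CH, *Fabp7* was first with 580 ± 69.8 per kb, followed by *Vim* with 141 ± 25.4, *Nes* with 57.6 ± 11.3 and *Prom1* with 24.8 ± 3.24 (SD, n = 5 per genotype). Between these 4 genes the ranges over embryos did not overlap. *Ddah1* (16.2 ± 7.20 per kb), *Ptprz1* (9.48 ± 1.32), *Slc1a3* (8.84 ± 1.42), *Hopx* (7.52 ± 2.15) and *Tnc* (3.76 ± 1.98) came next, and each of them overlapped its neighbor in this order. Among all tested genes with a length, *Fabp7* stood at the 99.9th percentile of this level, *Vim* at the 99.6th, *Nes* at the 98.2nd and *Tnc* at the 60.4th. In *Lmx1a*-/- CH the first 5 genes kept their order, from *Fabp7* (736 ± 98 per kb) and *Vim* (258 ± 16.8) to *Ddah1* (21.2 ± 9). *Hopx* (17.3 ± 5.80 per kb) and *Ptprz1* (17.1 ± 8.58) then preceded *Slc1a3* (8.04 ± 2.47), and *Tnc* remained last (2.10 ± 0.890), below the range of *Slc1a3*.

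**Figure D3:**
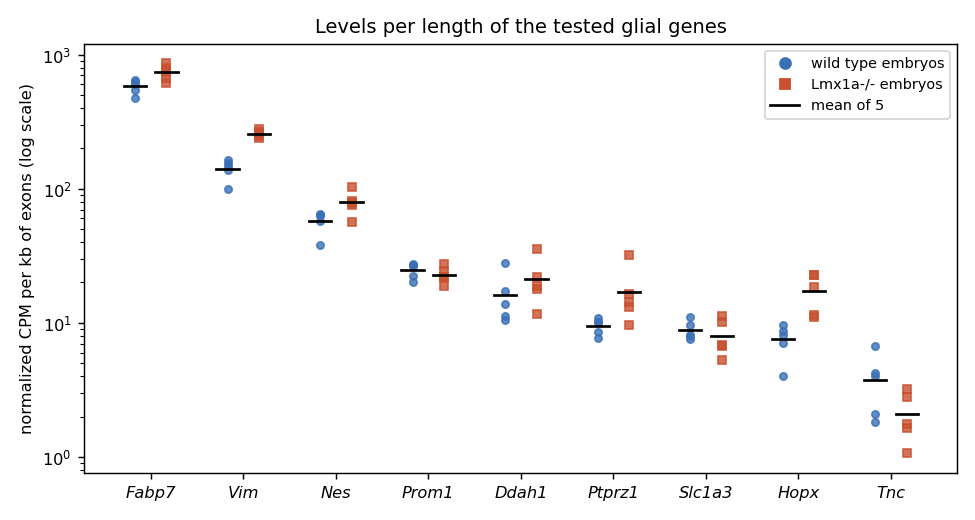
Normalized CPM per kb of exons (vertical log axis) of the 9 tested genes in each embryo, circles for wild type and squares for *Lmx1a*-/-, with horizontal bars for the means of 5. Levels span from 580 per kb for *Fabp7* to 3.76 per kb for *Tnc* in wild type, and the squares of *Vim* and *Hopx* lie above their circles.

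Single embryos tended to be low or high for several of these genes together. Wild-type embryo 4 was the lowest wild-type embryo for 6 of the 9 genes and the highest for *Tnc*. *Lmx1a*-/- embryo 3 was the lowest mutant embryo for 6 of the 9 genes, and mutant embryo 5 was the highest for 4. Wild-type embryo 4 also had the lowest summed levels of the wild-type group for 12 neuron genes (3827 normalized CPM) and 12 cell cycle genes (2572). The same held for other lists, among them astrocyte (4123), neuroepithelium (679) and Cajal-Retzius cell genes (384). For choroid plexus (324) and mesenchyme genes (762) it lay within the range of the other wild-type embryos. Its library was the smallest of the wild type (19407267 counts). After removal of the genotype means, the log2 levels of *Fabp7* and *Hopx* correlated at r = 0.945 over the 10 embryos. *Nes* correlated with *Ptprz1*, *Ddah1*, *Hopx* and *Vim* at 0.72 to 0.74, and *Slc1a3* with *Prom1* at 0.65. *Tnc* had coefficients of -0.50 with *Fabp7* and -0.49 with *Vim*, and of 0.42 with *Ptprz1*, 0.29 with *Ddah1* and 0.21 with *Slc1a3*. These coefficients describe embryos that share their library preparation, cell makeup and scaling across genes, and they carry no test.

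**Figure D4:**
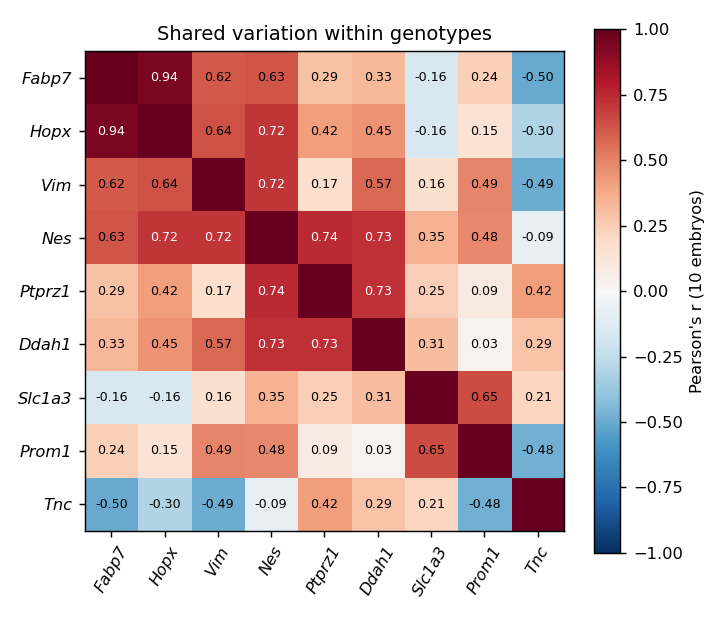
Pearson's r of log2 normalized CPM between each pair of the 9 tested genes after removal of the genotype means (10 embryos), on a color scale from -1 to 1. *Fabp7* with *Hopx* is highest at 0.945, and *Tnc* is negative with *Fabp7*, *Vim*, *Prom1*, *Hopx* and *Nes* and positive with *Ptprz1*, *Ddah1* and *Slc1a3*.

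Over 9260 genes with a mean of at least 10 normalized CPM, those most like *Vim* within genotypes were *Garem2* (r = 0.958), *Sept11* (0.934) and *Astn1* (0.931). *Astn1*, which encodes astrotactin, a protein of neurons that migrate along glia, rose from 100 ± 18.1 to 145 ± 15.1 normalized CPM (SD, n = 5 per genotype, log2 fold change 0.53, edgeR FDR = 0.0452). It did not pass without mutant embryo 2, 4 or 5, or with either covariate. For *Garem2* and *Sept11* the log2 fold changes were 0.15 and 0.02. Those most like *Tnc* were *Ppp3ca* (0.919), *Pmp22* (0.896) and *Cyp4f16* (0.890), with log2 fold changes between -0.12 and 0.08.

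Of 32 other tested genes of radial glia and neural progenitors, 4 rose and 1 fell past the threshold, where 1.72% and 2.29% of all tested genes did. The list was chosen with earlier results of these data known, so such shares describe it and do not test it. An unadjusted p under 0.05 was found for 11 of the 32, against 16.4% of all tested genes. Their summed level was 4409 to 5235 normalized CPM in wild-type and 5387 to 6070 in mutant embryos, without overlap. Abundant genes weigh most in such a sum, among them *Lrrn1* and *Ttyh1*, described next. Means were higher for 20 and lower for 12 of the 32 genes. The median log2 fold change of the 32 was 0.08 against -0.005 over all tested genes. *Lrrn1*, a leucine-rich repeat membrane protein, rose from 583 ± 50.9 to 943 ± 161 normalized CPM (log2 fold change 0.69, SE 0.11, edgeR FDR = 0.00445). *Ttyh1*, a membrane protein of progenitors, rose from 458 ± 70.9 to 690 ± 90.4 normalized CPM (0.59, SE 0.12, edgeR FDR = 0.0182). *Fgfr3*, a receptor of fibroblast growth factors, rose from 44.4 ± 11.8 to 84.3 ± 21.1 normalized CPM (0.92, SE 0.19, edgeR FDR = 0.0237). The nuclear receptor gene *Nr2e1* also rose (1.09), and the tetraspanin gene *Cd9* fell (-0.50). The mutant embryos lay above the wild-type embryos for *Lrrn1* and *Ttyh1* but overlapped them for *Fgfr3*. None of these 5 genes passed with the *Xist* covariate or the choroid plexus covariate, where *Lrrn1* had log2 fold changes of 0.60 and 0.65 and *Fgfr3* 1.02 and 0.58, and *Nr2e1* went from 1.09 to 0.27 with the choroid plexus covariate. *Nr2e1* passed in 6 and *Cd9* in 3 of the 10 fits without 1 embryo, and the other 3 genes in all 10. The progenitor transcription factor gene *Sox2*, named after its value was seen, had 101 ± 15.6 normalized CPM in wild-type CH (log2 fold change 0.003, 95% confidence interval -0.28 to 0.28).

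Of 11 other tested genes of outer radial glia, 0 passed in either direction, against 4.02% of all tested genes. Their median log2 fold change was -0.16. Several of these genes were scarce, so a difference in them could hardly be detected. Among them, *Fam107a* had means of 1.01 and 2.60 normalized CPM (log2 fold change 1.32, SE 0.62). *Hepacam* had 0.87 and 0.41 (-1.06, SE 0.71), and both were named after their values were seen. The smallest p belonged to *Gng5*, a G protein subunit, with 63.7 to 93.3 normalized CPM in wild-type and 52.9 to 63.2 in mutant embryos (log2 fold change -0.36, edgeR FDR = 0.107). *Plagl1* had a log2 fold change of 0.44 and *Itgb5* of -1.09, and neither passed.

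Of 24 tested astrocyte and glial scaffold genes, 3 fell and 2 rose past the threshold (median log2 fold change -0.11). Of all tested genes, 2.29% fell and 1.72% rose. *Slc4a4*, a sodium bicarbonate cotransporter, fell from 41.8 ± 12 to 15.6 ± 3.09 normalized CPM (log2 fold change -1.42, SE 0.20, edgeR FDR = 0.0028). *Ntrk2*, the receptor of BDNF, fell from 121 ± 23.1 to 66.1 ± 8.43 normalized CPM (-0.87, SE 0.13, edgeR FDR = 0.00373), and *Clu*, the gene of clusterin, fell by 0.76 on the log2 scale. *Gli3*, a transcription factor of the hedgehog pathway, rose from 446 ± 31.7 to 602 ± 56.2 normalized CPM (0.43, SE 0.08, edgeR FDR = 0.012). For each of these 4 genes the genotypes did not overlap, a property of 4.44% of all tested genes. None of the 4 passed with the *Xist* covariate or the choroid plexus covariate. With *Xist*, the log2 fold changes were -1.35 for *Slc4a4*, -0.81 for *Ntrk2*, -0.97 for *Clu* and 0.49 for *Gli3*. With choroid plexus genes they were -0.67, -0.52, -0.38 and 0.41 in this order. The glutamate transporter *Slc1a2*, a paralog of *Slc1a3*, had 32.3 ± 9.48 and 44.2 ± 10.4 normalized CPM without passing (edgeR FDR = 0.299), and *Aqp4*, the water channel of astrocyte endfeet, was scarce at 4.65 ± 1.43 and 4.51 ± 1.36. Both were named after their values were seen. Of 6 tested oligodendrocyte precursor genes, 1 fell, the growth factor receptor *Pdgfra*, with 38.0 to 56.7 normalized CPM in wild-type and 15.9 to 36.5 in mutant embryos (log2 fold change -0.81, SE 0.18, edgeR FDR = 0.0388). *Pdgfra*, which is also transcribed in mesenchyme, did not pass without mutant embryo 4, with the *Xist* covariate (-0.95) or with the choroid plexus covariate (-0.50).

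**Figure D5:**
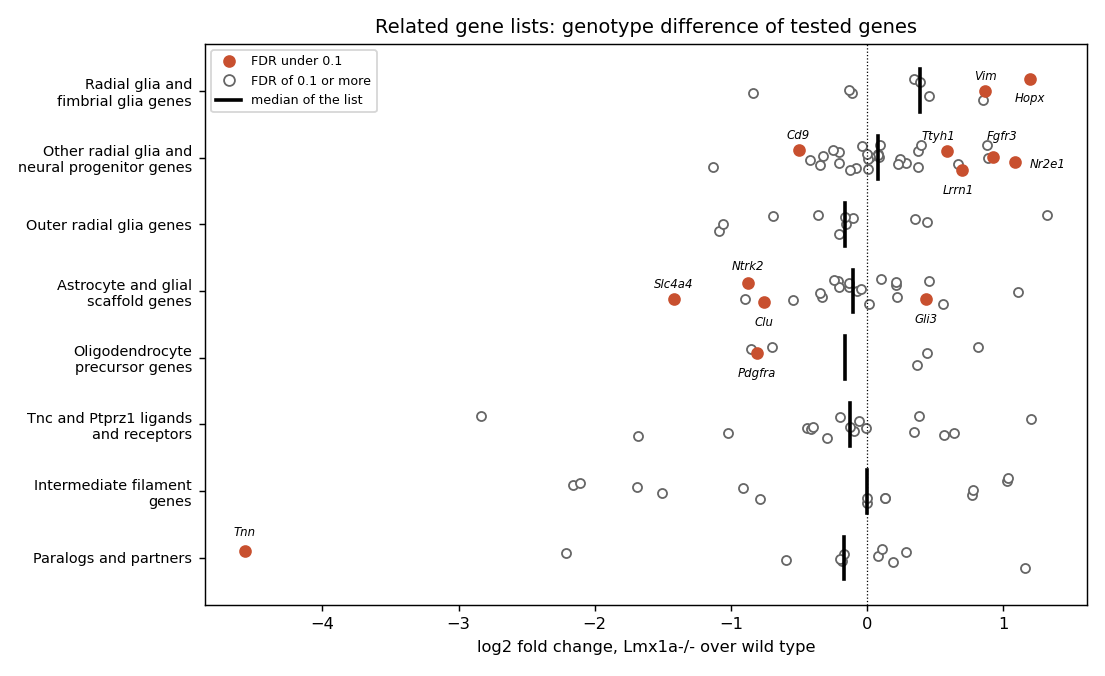
Log2 fold change of *Lmx1a*-/- over wild type (horizontal axis) of tested genes in 8 lists (rows), with filled symbols and names for FDR under 0.1 and black bars for list medians. *Vim*, *Hopx*, 4 of 32 other radial glia genes and *Gli3* of the astrocyte list are filled on the right. *Cd9* of the other radial glia genes, *Slc4a4*, *Ntrk2*, *Clu*, *Pdgfra* and *Tnn* are filled on the left. No gene of the outer radial glia list or the list of further filament genes is filled.

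Genes of other cells in or near the captured tissue were summed in each embryo. Of all tested genes, 1.72% were higher and 2.29% lower past the threshold, and 16.4% had an unadjusted p under 0.05. The 10 tested choroid plexus genes summed to 138 to 488 normalized CPM in wild-type and 152 to 232 in *Lmx1a*-/- embryos, with 0 higher and 2 lower past the threshold. Their median log2 fold change was -1.23, with 9 lower and 1 higher means and 8 of 10 at an unadjusted p under 0.05. The transthyretin gene *Ttr* had 124, 164, 5.74, 21.3 and 77.2 normalized CPM in wild-type embryos 1 to 5 and 1.14 to 15.1 in mutant embryos. The 10 mesenchyme and meninges genes summed to 377 to 1041 in wild-type and 347 to 580 in mutant embryos (0 higher, 2 lower). Their median log2 fold change was -0.51, with 4 of 10 at an unadjusted p under 0.05. The 10 genes of cortical and hippocampal neuroepithelium, which borders the CH and is rich in radial glia, summed to 679 to 1013 in wild-type and 1089 to 1364 in mutant embryos without overlap, and 4 of them rose and 0 fell past the threshold. For this list the median log2 fold change was 0.46, with 6 of 10 at an unadjusted p under 0.05. The 13 CH genes summed to 1670 to 3179 in wild-type and 1812 to 2258 in mutant embryos (1 higher, 7 lower). Their median log2 fold change was -0.59, with 11 lower and 2 higher means and 10 of 13 at an unadjusted p under 0.05. The gene higher past the threshold was *Lmx1a* itself (0.68, edgeR FDR = 0.0658). *Wnt8b*, the most abundant of the 13, had means of 851 and 920 normalized CPM and weighs most in the sum. For 12 neuron genes the sums were 3827 to 5809 and 4090 to 5766, for 12 cell cycle genes 2572 to 3120 and 2618 to 3343, and 0 genes of either list passed. Red blood cell genes (7 tested) summed to 617 to 1463 in wild-type and 261 to 568 in mutant embryos without overlap, with a median log2 fold change of -0.91 and 4 of 7 at an unadjusted p under 0.05, and 0 of the 7 passed. Endothelium genes summed to 23.5 to 83.1 and 20.4 to 58.5, microglia genes to 14.5 to 31.5 and 17.4 to 31.8, and 0 of 8 passed in each list. Sums of 7 Cajal-Retzius cell genes were 384 to 547 and 233 to 319 without overlap (1 higher, 3 lower). The median log2 fold change of these 7 was -0.85, with 6 of 7 at an unadjusted p under 0.05. The part of neuroepithelium, choroid plexus, mesenchyme, blood cells and Cajal-Retzius cells in the levels of *Vim* and *Hopx* was not tested.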

How the data were processed

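Libraries were made with a SMARTER kit from total RNA of laser-captured CH, 1 per embryo, from 5 wild-type and 5 *Lmx1a*-/- embryos, grouped by the genotype in the labels. The authors used Trimmomatic for trimming, STAR 2.7.1a for alignment of paired-end reads to GRCm38, and produced raw counts per gene with HTSeq 0.11.2. The deposited counts were not normalized. Of 52508 rows, 281 exact repeats were dropped, which left 52227 genes.

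The 21664 genes that reached 10 counts in 3 or more libraries were kept, scaled by TMM and compared with the quasi-likelihood F-test of edgeR 4.0.16 (trended dispersion, R 4.3.3), with Benjamini-Hochberg adjustment over all of them. SE is the size of the log2 fold change divided by the square root of F. The filter and threshold follow the study's methods, which do not name the edgeR test. Library totals (19145952 to 36462780) limit precision for scarce genes. The fits were tested on simulated data. Positions and exon lengths come from GENCODE annotation of GRCm38, and promoters from RefSeq.

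The genes and lists were chosen with earlier results of these data known. Named genes are the 10 genes, up to 3 genes of each list with the smallest p, *Lmx1a*, *Xist*, Y-linked genes and the 3 genes most like *Vim* and *Tnc*, and others are marked or are members of a list past the threshold. A single member is counted but not reported here. Alternatives were other tests (DESeq2 1.42.0 among them), scalings, filters, covariates, embryo sets and an FDR of 0.05.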

Additional observations from a re-analysis of the deposited data

Results flagged for a closer look

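In 9 of 76 groups of 5 embryos examined (38 genes in both genotypes), 1 embryo lay far from the other 4. Chance alone marks about 1 in 20 groups in this way if groups are independent, which genes of the same embryos are not. Among the 10 glial genes this was the case only for *Nes*, where wild-type embryo 4 had 243 normalized CPM and the next lowest had 369. Wild-type embryo 4 also stood apart for *Itgb6* (9.13 normalized CPM), *Tnn* (7.68) and *Prom2* (14.3), where it was high, and for *Garem2* (11.7) and *Astn1* (69.2), where it was low. *Garem2* and *Astn1* were picked for their correlation with *Vim* in these embryos, so their flags are not separate from its low *Vim*. Without wild-type embryo 4 the log2 fold change of *Prom2* moved from -2.21 to -0.37. The other values were *Itgb1* in wild-type embryo 2 (146 normalized CPM), *Gli3* in *Lmx1a*-/- embryo 5 (505) and *Fabp3* in *Lmx1a*-/- embryo 1 (1.43).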

How the results depend on the processing

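*Vim* and *Hopx* were higher past the threshold with every test, scaling and filter tried. The *Xist* and choroid plexus covariates ended both calls. Calls among the 9 genes are not counted for the set of 6 embryos with Y-linked transcripts, which has 1 wild-type embryo. No alternative called any of the 9 genes lower. The number called higher was 2 in the reported fit. It was 4 with the likelihood ratio test, the exact test, the newer quasi-likelihood method and scaling by library size only. With DESeq2 it was 5, and with either covariate it was 0. The added genes were *Ptprz1* and *Fabp7*, and *Nes* with DESeq2. Leaving out 1 embryo in turn gave 2 to 5 higher and 0 lower, and the 5 came without *Lmx1a*-/- embryo 3.

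The estimate for *Tnc* turned to 0.11 with the *Xist* covariate and to 0.010 in the 6 embryos with Y-linked transcripts, and that for *Ddah1* turned to -0.43 with the choroid plexus covariate. The cause was not tested. Over all tested genes, 497 lower and 373 higher calls became 805 lower with the likelihood ratio test, 772 lower with the exact test, 976 lower and 790 higher with DESeq2, and 251 and 197 at an FDR of 0.05. They became 28 and 5 with the *Xist* covariate, 10 and 6 with the choroid plexus covariate, and 86 and 44 in the 6 embryos. The counts in the 6 embryos come from a fit with 1 wild-type embryo and thus no replicate of the wild type. They cannot be compared with the other counts, and they do not show which differences hold apart from sex chromosome transcripts. Without 1 embryo there were 261 to 604 lower and 190 to 455 higher genes, fewest without *Lmx1a*-/- embryo 4.

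With the embryo number as a replicate block, 353 genes were lower and 248 higher, and 3 of the 9 genes passed, with *Fabp7* added (0.34, edgeR quasi-likelihood FDR = 0.0596). The deviations of same-numbered embryos correlated at -0.0985 to 0.0133, so equal numbers were not treated as pairs. The study describes the wild-type embryos as littermates, but the labels name no litters, and an effect of litter was not tested. *Gfap*, with 0 to 20 reads per library, was not tested at this depth.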
